A study of Mus musculus with 2 samples.

Results

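TBX5 sites that lie close together on the mouse chromosomes are described here: 1380 peaks in 374 dense groups, of 8849 peaks in the whole list. A peak is a stretch of DNA where fragments pulled down with an antibody against TBX5 pile up over a control library. The members were chosen by position alone. Peaks on chromosomes 1 to 19 and X were joined to their neighbour where the gap was at most 12.5 kb, and groups of 3 or more were kept. The members made up 15.6% of the 8841 peaks on these chromosomes. A further 1852 peaks formed pairs and 5609 stood alone. Both samples of the study came from cardiac ventricles of untreated wild type C57BL/6 mice aged 15 weeks, fixed with 2% formaldehyde. Chromatin was immunoprecipitated with anti-TBX5 or, as a control, with rabbit IgG and sequenced (ChIP-seq). The list used here is a single merged TBX5 list, and the design text gives 2 biological replicates per antibody. The control levels below come from the caller's control library, which the sources used do not name. No value of a single replicate, and no separate list of the IgG sample, was analysed here. There is therefore no replicate error behind any value, and no difference below was tested. The tissue was whole ventricle, so sites of heart muscle cells and of other ventricular cells cannot be told apart. The list carries no gene names, so the tissue label was not checked against cell type markers.

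TBX5 is a T-box transcription factor. It binds DNA through its T-box domain, often beside other heart factors such as GATA4 and NKX2-5, and it is needed for heart formation and for the cardiac conduction system. Several transcription factor sites within a few kilobases are a common feature of enhancers and of the extended enhancer regions at genes that define a cell type. The joining distance used here is the one customary for such extended regions.

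Most dense groups were small. There were 231 groups of 3 peaks, 89 of 4, 28 of 5 and 11 of 6, which left 15 larger ones with 7 to 12 peaks. The median group ran over 11.3 kb from the start of its first peak to the end of its last (quartiles 7.29 and 16.9 kb). The shortest spanned 895 bp and the longest 67.0 kb. Groups of 3 had a median span of 9.73 kb, groups of 4 of 12.4 kb and groups of 5 of 19.6 kb. The group with the most peaks, 12, was not long, at 21.1 kb. Only 12 groups ran over 30 kb or more, and 11 were shorter than 2 kb. Bound DNA was a small part of these spans. The called peaks covered 366 of 4792.5 kb in all, or 7.64%, and from 1.89% to 83.1% of single groups.

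**Figure D1:**
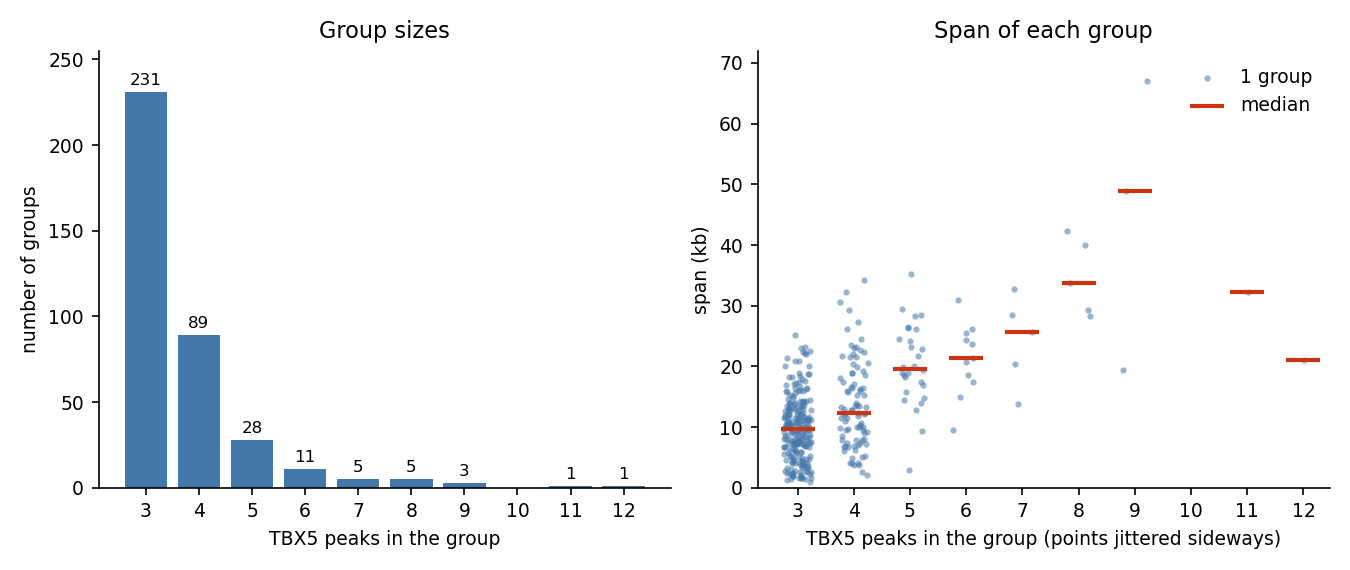
Left: number of dense groups (bars, count on the vertical axis) by the number of TBX5 peaks they hold. Right: span of each of the 374 groups in kb (points) by number of peaks, with the median of each size as a red line; 231 groups hold 3 peaks, and the spans reach 67.0 kb.

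Within the groups, peaks sat at all distances that the rule allows. The 1006 gaps between neighbouring members had a median of 3376 bp (quartiles 1049 and 7381 bp), and the pairs a median gap of 3431.5 bp. A gap of 1 kb or less separated 244 neighbours (24.3%), and 398 gaps (39.6%) were over 5 kb. The shortest gap was 51 bp, and the closest neighbouring summits were 140 bp apart. At the edge of the rule, the widest gap joined was 12488 bp and the narrowest one not joined was 12518 bp. In the last 500 bp below the limit there were 33 gaps, which were joined, and in the first 500 bp above it 39, which were not. Peaks within 1 kb may be parts of a single enriched stretch. With such peaks counted as 1, 261 of the 374 groups still held 3 or more separate sites. Another 98 groups came down to 2 sites and 15 to a single one. No group held more than 9 separate sites by this count, and the group of 12 peaks came down to 7.

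Taken singly, the members had folds and median fragment numbers close to those of other TBX5 peaks, but more fragments in the upper tail. Fold is the deposited enrichment over the local control level, which is the control pileup at the summit or an average around it, whichever is highest. The median fold was 5.31 for the members (quartiles 4.08 and 7.69), 5.52 for peaks in pairs and 5.52 for solitary peaks. The fragments at the summit were recovered from the deposited fold and p-value. Their median was 33.5 TBX5 fragments for members, 33 for pairs and 31 for solitary peaks. The 90th percentile was 80 for members, 71 for pairs and 63 for solitary peaks. Members were somewhat wider, with a median of 219.5 bp against 208 and 197 bp. Among members, 201 had a fold of at least 10 (14.6%, 95% Wilson interval 12.8 to 16.5), beside 13.7% of all peaks on these chromosomes and 13.5% of the solitary ones (12.6 to 14.4). The member share is near that of the whole list. Members supplied 17.5% of all summit fragments and 17.5% of the total peak width. Peak positions and these values come from the same comparison of TBX5 with the control library, and neighbours share local control windows. The intervals treat peaks as independent and cover counting error only.

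Low control levels were rarer at members than at paired or solitary peaks. The local control level had a median of 4 fragments per position at members and at paired peaks, and of 3 at solitary peaks. It was 3 or more at 1052 members (76.2%), at 68.0% of paired and at 60.3% of solitary peaks. Only 27 members (1.96%) rested on the genome background of 1.18, against 5.83% of paired and 11.1% of solitary peaks. The upper quartile of the control level was 6 in each class. That of TBX5 fragments was 49 for members, 47 for paired and 44 for solitary peaks. At like control levels the median folds lay close together. At levels from 2 to under 4 the median was 5.91 for members and 6.14 for solitary peaks, and at levels from 6 to under 10 it was 4.30 and 3.96. The share of high folds was larger among members than among solitary peaks in the ranges of control level from 4 up. Their intervals lay apart only at levels from 6 to under 10, and the ranges were set after the data were seen. At levels from 6 to under 10, 33 of 305 members (10.8%, 95% Wilson interval 7.81 to 14.8) and 60 of 1010 solitary peaks (5.94%, 4.64 to 7.57) had a fold of 10 or more. At levels from 4 to under 6 these were 59 of 365 (16.2%, 12.7 to 20.3) and 129 of 1096 (11.8%, 9.99 to 13.8), with overlapping intervals. At levels of 10 or more they were 4 of 100 (1.57 to 9.84) and 3 of 431 (0.237 to 2.03), again with overlapping intervals. At levels from 2 to under 4 the shares were 16.3% and 16.6%, and at levels under 2 they were 22.0% and 21.2%. The intervals of paired peaks overlapped those of members in every range. Among paired peaks, 122 of 642 had such a fold at levels from 2 to under 4, a larger share than among members. At levels from 6 to under 10 it was 27 of 375 (7.20%), a smaller one. Whether the control level has a part in the grouping was not tested.

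**Figure D2:**
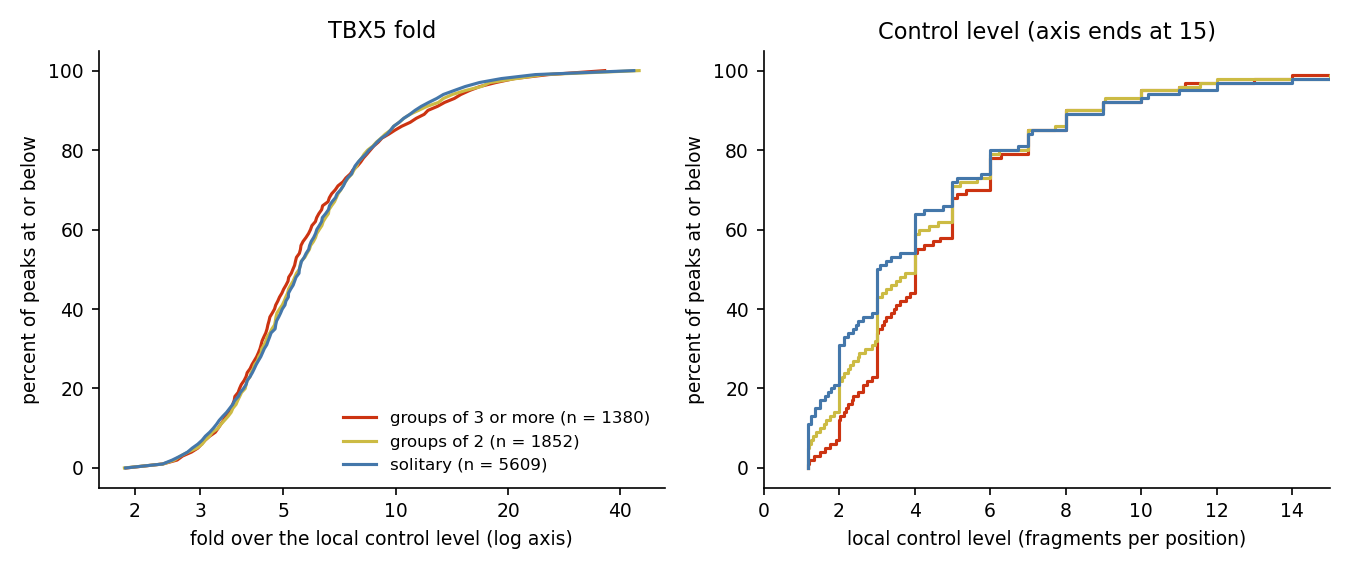
Percent of peaks (vertical axis) at or below a given fold (left, log axis) or local control level in fragments per position (right), for peaks in dense groups, in pairs and alone. The fold curves nearly coincide, with medians of 5.31, 5.52 and 5.52, while the control curve of the dense groups lies to the right below a level of about 6.

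Each group has a strongest member, taken here by the deposited score, which is 10 times the −log10 of the q-value cut to a whole number. The strongest members had a median fold of 8.69 (quartiles 5.99 and 13.5, range 2.92 to 36.3) and held a median of 57 TBX5 fragments (14 to 217). The other 1006 members had a median fold of 4.70 on 30 fragments, over the same median control level of 4. This gap follows from the choice of the highest member. Of the other members, 49 (4.87%) reached a fold of 10, beside 13.7% of all peaks on these chromosomes. This share is lowered by leaving out the strongest member of each group. In 313 groups the strongest member by score was also the highest in fold, and in 298 it had the most fragments.

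Some groups were led by a single site and others had several alike. The fold of the strongest member was 1.38 times that of the next by score in the median group (quartiles 1.11 and 1.95). It was at least 2 times as high in 88 groups (23.5%) and at least 3 times in 26, and the ratio was below 1.2 in 124. In 245 groups (65.5%) the exact 95% Poisson intervals on the fragments of these summits overlapped. Such intervals can overlap where the difference exceeds counting error, so the groups with an unsettled order may be fewer. In 126 groups the strongest had more fragments with intervals apart. In 3 groups the next member by score had more fragments with intervals apart, and a control level of 12, 17 or 59 against 2.125, 2.75 or 3.38 at the strongest. The widest ratio of fold, 6.27, was in a group of 3 peaks on chromosome 9 from 25324326 to 25334985, named after its values were seen. Its folds in order along the chromosome were 5.16, 3.52 and 22.1.

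**Figure D3:**
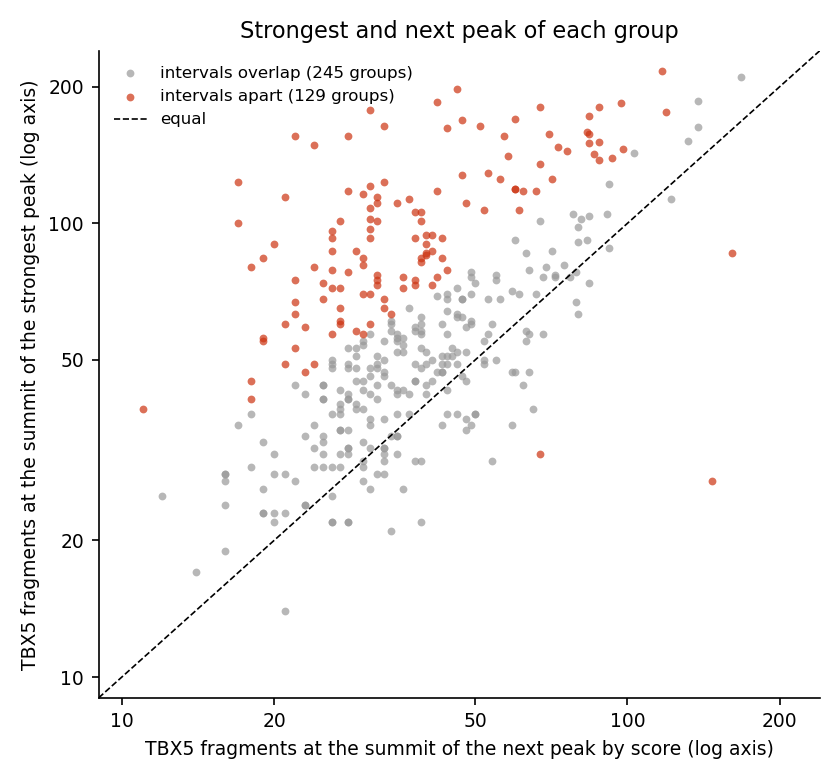
TBX5 fragments at the summit of the strongest peak (vertical) and of the next peak by score (horizontal) of each of the 374 groups, both on log axes; the dashed line marks equal numbers. Red points are the 129 groups whose 95% Poisson intervals do not overlap, 126 of them above the line, and grey points the 245 whose intervals overlap.

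The strongest member lay inside its group, with members on both sides, in 169 of 374 groups (45.2%, 95% Wilson interval 40.2 to 50.3). Inside places made up 42.0% of a group's members, averaged over groups, which lies within that interval. In groups of 3 the share was 37.7% (31.7 to 44.1) beside 33.3% of places, and in groups of 4 it was 50.6% beside 50%. In groups of 5 it was 64.3% (45.8 to 79.3) beside 60%. In groups of 6 or more it was 73.1% (53.9 to 86.3), beside 72.8% of all places pooled over these groups. The next member by score was its direct neighbour in 213 groups (57.0%), and direct neighbours made up 58.0% of all possible pairs of members, averaged over groups. The median distance between these summits was 6.91 kb.

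The median fold of the other members varied little with their distance from the strongest one. It was 4.45 within 1 kb of its summit (104 members), 4.65 from 1 to 2.5 kb (124), 4.72 from 2.5 to 5 kb (171), 4.68 from 5 to 10 kb (284) and 4.79 from 10 to 20 kb (268). It was 5.05 for the 55 members from 20 to 60 kb away. Each member's fold was also taken as a percentage of the strongest fold of its group. The medians of these ran from 46.0% in the farthest range to 57.5% at 1 to 2.5 kb. The strongest fold itself had a median of 11.4 in the farthest range and 7.72 in the nearest. The farthest members came from only 34 groups. Between direct neighbours, Spearman's rho over 1006 pairs was 0.13 for fold, 0.036 for fragments and 0.32 for the control level. For the 244 neighbours within 1 kb these were 0.22, 0.032 and 0.49. These pairs share a library and, when close, the windows behind the control level.

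**Figure D4:**
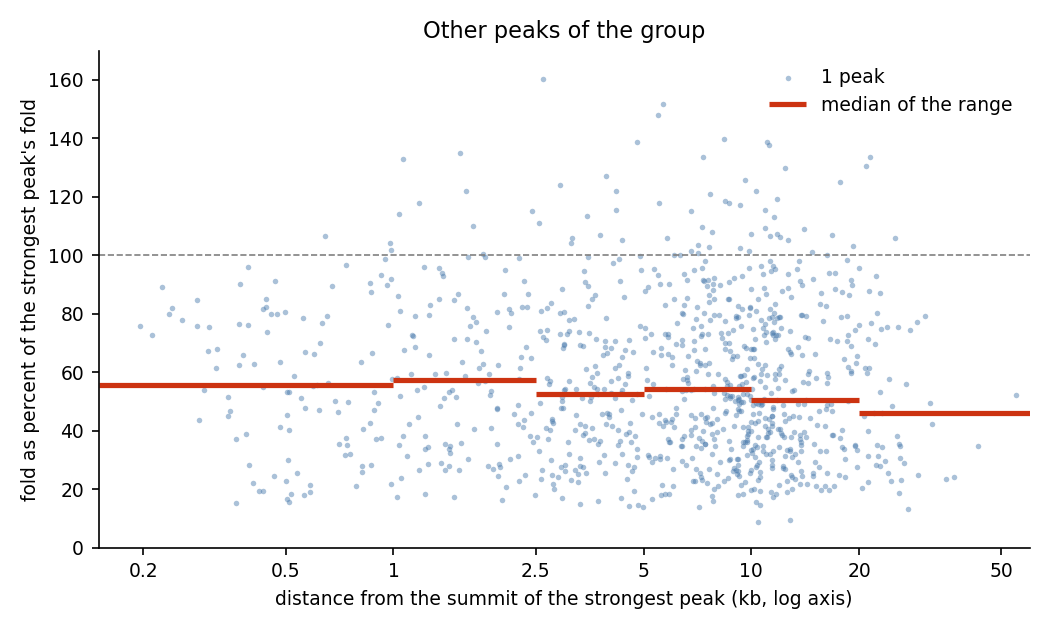
Fold of each of the 1006 other members as a percentage of the fold of the strongest member of its group (vertical) by the distance between the summits in kb (horizontal, log axis). Red lines are medians of 6 distance ranges, which stay between 46.0% and 57.5%; points above the dashed line at 100% are members with a higher fold but a lower score than the strongest.

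Most groups with a high site had only 1. No member reached a fold of 10 in 221 groups, 1 member did in 112, 2 members in 34 and 3 members in 7, and no group had more. Such a fold was found at 13.7% of all peaks on these chromosomes. The share of groups with at least 1 such member was 40.9% (95% Wilson interval 36.0 to 46.0). It was 32.5% in groups of 3, 46.1% in groups of 4, 64.3% in groups of 5 and 73.1% in groups of 6 or more, and a group with more members has more places for a high one. The lowest member changed little with size, with a median fold of 3.82 in groups of 3 and 3.33 in groups of 6 or more. In 42 groups (11.2%) every member was below a fold of 5. In a single group every member was at 10 or more. It held 3 peaks on chromosome 7 from 4461587 to 4474493, with folds of 13.8, 11.1 and 17.9 on 139, 55 and 93 fragments, and was named after its values were seen.

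The groups of 8 or more peaks differed in shape. Some gene names are given beside them as landmarks, from general knowledge of the mouse genome. They were not checked against an annotation of build mm9, carry no measurement here and do not assign a site to a gene.

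The group of 12 peaks, on chromosome 11 from 98235651 to 98256720, lies in the region of Tcap, which encodes the Z-disc protein telethonin. It had a high site near each end and a row of weak ones between. The folds in order were 12.9, 4.72, 2.67, 3.34, 3.35, 4.36, 4.13, 4.13, 3.66, 2.95, 13.5 and 5.76. The first site held 81 fragments (95% Poisson interval 64.3 to 100.7) and the eleventh 102 (83.2 to 124), which overlap, and the other 10 held 20 to 40. The high sites were 20005 bp apart.

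The group of 11 peaks, on chromosome 5 from 23826388 to 23858685, lies in the region of Kcnh2, which encodes a potassium channel that repolarises heart muscle cells. Its folds in order were 6.35, 4.59, 5.74, 13.01, 4.40, 4.13, 6.33, 2.68, 3.85, 3.23 and 14.9. The last peak, at the right end, was the strongest, with 146 fragments (123 to 172), and the fourth, 22881 bp before it, held 98 (79.6 to 119). The fifth peak held 77 fragments as well, but over a control level of 13, the highest of this group.

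The group on chromosome 16 from 96421931 to 96451164, in the region of Sh3bgr, held 536 summed fragments (492 to 583), against a median of 135 over all groups. Its 8 folds in order were 4.41, 4.54, 9.86, 9.62, 5.03, 23.2, 15.8 and 11.1. The 3 high sites followed each other at its right end, and held 176, 119 and 69 fragments. A group on chromosome 5 from 30876839 to 30916882 had as many peaks but a single leading site. Its second peak held 164 fragments (140 to 191) at a fold of 21.7, and the other 7 held 19 to 33 at folds of 2.88 to 5.39.

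The groups of 9 peaks ranged from compact to scattered. On chromosome 1 from 74045165 to 74064653, in the region of Tns1, which encodes the focal adhesion protein tensin, the 9 folds lay between 2.62 and 7.79. The strongest site, at the right end, held 78 fragments and the first 79, and the control levels were 3.75 to 9. With peaks within 1 kb counted as 1, this group had 5 sites. On chromosome 6 from 101257924 to 101324949, in the region of Pdzrn3, the 9 peaks spread over 67.0 kb, the longest span of all groups. No gap there was 1 kb or less. Its 3 sites of fold 10 or more, at 12.0, 14.4 and 12.4, were the fifth, seventh and eighth peaks and rested on only 32, 63 and 46 fragments over control levels of 1.18 to 2.5. On chromosome 15 from 25844767 to 25893603, the strongest site by score had a fold of 13.4 on 118 fragments over a control level of 6. A site 20854 bp before it reached 17.5 on 66 fragments over 2.02.

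The groups of 8 peaks on chromosomes 18 and 2 had lower leading folds than those on chromosomes 16 and 5. On chromosome 18 from 61481686 to 61524023 the folds ran from 3.27 to 11.7, and on chromosome 2 from 167652566 to 167686268 from 3.02 to 7.64. In the latter the seventh peak had the most fragments, 68 over a control level of 10, and the sixth the highest score, with 57 over 5.

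**Figure D5:**
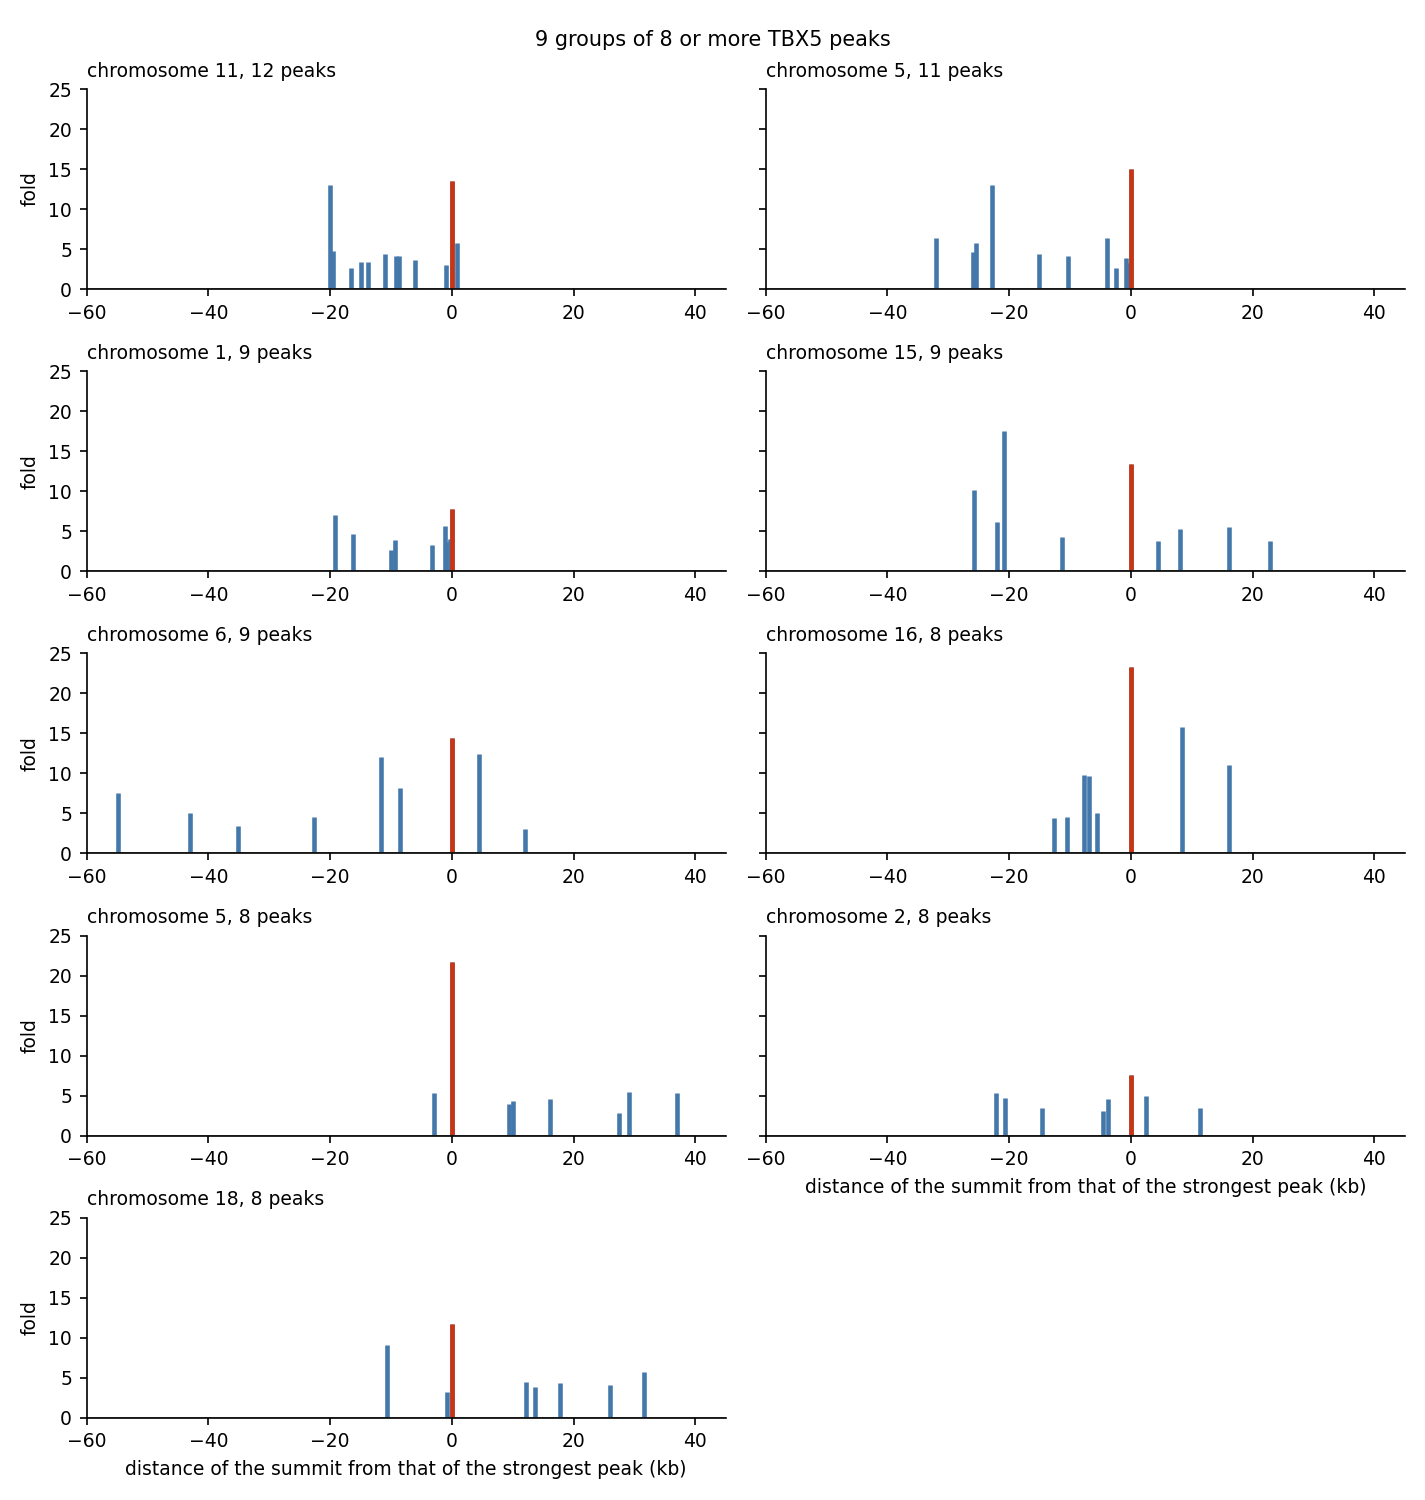
Fold of every peak (vertical lines, height on the vertical axis) in 9 of the 10 groups of 8 or more TBX5 peaks, by the distance of its summit in kb from the summit of the strongest peak by score (red, at 0). The chromosome 11 group has a site of 12.9 and one of 13.5 with weak peaks between, and the chromosome 5 group of 8 a single leading site of 21.7.

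The 10 highest-scoring members of dense groups were found in groups of 3 to 8 peaks. In 9 of these 10 groups their fragment interval lay apart from that of the next, as it did, with more fragments, in 126 of all 374 groups. The 10 were chosen by a score that rises with fragments, so their larger share follows at least in part from the choice. The highest score was at the right end of a group of 5 on chromosome 13 from 12217062 to 12226451. That site held 178 fragments (153 to 206) at a fold of 28.2, and the other 4 held 17 to 33 at folds of 4.79 to 7.52. A group of 7 on chromosome 1 from 43296689 to 43317063 followed, with folds in order of 6.96, 6.24, 34.3, 8.05, 5.36, 3.05 and 9.34. The site at 34.3 held 157 fragments (133 to 184), and the last 70. The highest fold of any member, 36.3, was in a group of 6 on chromosome 8 from 13229937 to 13254366. Its folds were 7.92, 16.4, 9.10, 36.3, 7.84 and 5.37, and its strongest and next sites held 143 (121 to 168) and 103 (84.1 to 125) fragments.

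Groups of 3 or 4 could be as strong at their best site. On chromosome 6 from 91491851 to 91496689 the folds rose from 4.33 through 16.6 to 30.6 over 4.84 kb. On chromosome 2 from 164277443 to 164280588 a site of 27.5 was followed by 4.75 and 5.56. On chromosome 1 from 136806640 to 136815896 a site of 30.9 on 156 fragments was followed by sites on 13 and 22 fragments. A group of 4 on chromosome 12 from 80145704 to 80156710 had 3 high sites, with folds of 12.1, 16.8, 4.72 and 24.2. A group of 4 on chromosome 9 from 67008570 to 67018912 had a single one, with folds of 8.58, 5.42, 32.2 and 4.49.

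The most compact groups of 4 or more peaks packed them into 2 to 4 kb. On chromosome 19 from 36240974 to 36243898, 5 peaks lay in 2925 bp, with folds of 7.56, 5.19, 26.7, 5.68 and 11.0, and the middle one held 164 fragments (140 to 191). This group was among the 10 above by score. The densest, 4 peaks in 2.08 kb on chromosome 19 from 23208472 to 23210555, was weak. Its folds were 2.33 to 3.02 on 44 to 55 fragments, over control levels of 12.9 to 18. Others lay on chromosome 3 from 101607825 to 101610387 (folds 3.29 to 6.12), chromosome 4 from 140975802 to 140979496 (3.89 to 16.2) and chromosome 8 from 107131989 to 107135748 (3.99 to 13.7). None of these compact groups kept 3 separate sites with peaks within 1 kb counted as 1. Those on chromosomes 19 and 3 came down to 1 site each, and those on chromosomes 4 and 8 to 2. At the other end, 5 peaks on chromosome 8 from 126770935 to 126806185 spread over 35.3 kb. The strongest had a fold of 18.2 on 76 fragments and its left neighbour 9.61 on 72.

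The weakest groups rested on few fragments or high control levels. The 5 groups whose strongest member had the lowest scores held 3 peaks each. With peaks within 1 kb counted as 1, the one on chromosome 7 came down to 1 site and the others to 2. In the group on chromosome 13 from 72501938 to 72509406 the summits held 11, 21 and 14 fragments, the lowest sum of any dense group at 46 (33.7 to 61.4). On chromosome 16 from 84835123 to 84836676 the fragments were 42, 41 and 25, but over control levels of 15, 10.4 and 5, so that folds were 2.13, 2.92 and 3.44. The groups on chromosome 7 from 6680075 to 6681507, chromosome 14 from 102235776 to 102239865 and chromosome 6 from 72516402 to 72520951 had folds of 3.23 to 4.69.

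In 77 groups at least 1 member had a control level of 10 or more. The extreme was a group of 3 on chromosome 14 from 55578950 to 55587052, named after its values were seen, in the region of the cardiac myosin heavy chain genes Myh6 and Myh7. Its peaks held 27, 147 and 146 TBX5 fragments over control levels of 3.38, 59 and 60. Their folds were 5.08, 1.94 and 1.90, so the peak with the fewest fragments had the highest score. The most fragments at a strongest member, 217 (189 to 248), were in a group of 3 on chromosome 5 from 122542559 to 122550986, named likewise. They stood over a control level of 12 at a fold of 13.2, and the peak before had 13.3 on 117 fragments over 6.

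Dense groups were found on every autosome and were few on X. The autosomes held 11 to 31 groups each, and 15.6% ± 2.60 of their peaks were members (SD over 19 autosomes). Chromosome 19 had the highest share, 21.6% (95% Wilson interval 17.0 to 27.0), and chromosome 14 the lowest, 11.7% (8.61 to 15.6). On X only 6 of 102 peaks (5.88%, 2.72 to 12.2) were members, in 2 groups of 3. These had folds of 4.53 to 6.71 on 16 to 27 fragments, at 96471623 to 96482999 and at 139264732 to 139267959. X also held the fewest peaks, while the autosomes held 259 to 685 each. Membership depends on spacing, and the shares were not adjusted for the number of peaks per length of chromosome. Peaks become members at least 3 at a time, so they are not independent, and these intervals are too narrow. The 56 members on chromosome 19 were 14 groups, and the 38 on chromosome 14 were 11.

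Some dense groups lay near others. Another group was within 100 kb of 58 groups (15.5%), in 26 runs, and 5 runs held 3 or more groups. The fullest run, on chromosome 19 from 53735373 to 53905204, had 4 groups and 17 members, and these were all the members in the window from 53 to 54 Mb. The Tns1 region was part of a run of 3 groups with 16 members on chromosome 1 from 74008832 to 74168840. Runs of 3 groups also lay on chromosome 2 from 167516014 to 167686268 (14 members), chromosome 8 from 13104845 to 13254366 (12) and chromosome 3 from 101297940 to 101408070 (10). Members were found in 303 of the 1786 windows of 1 Mb that held a peak, and 62 windows held 2 or more dense groups. On chromosome 5 from 23 to 24 Mb, all 11 members among 21 peaks came from the Kcnh2 region group.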

How the data were processed

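The data are 1 list of TBX5 peaks in adult mouse ventricle. The submitters' processing notes name build mm9, and the tools MACS2 (2.1.1.20160309.0), Bowtie2 (2.2.6.2) and FastQC (0.10.0). The merging of replicates and the caller's control are not given in the sources used. The list deposited by the authors gives each peak's position, score, fold enrichment (a ratio), −log10 p and −log10 q, with a lowest −log10 q of 1.30. Coordinates are mm9, counted from 1. Members and groups were chosen with earlier results of these data known.

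Peaks were sorted by start and joined up to 12.5 kb from end to start. TBX5 fragments at each summit were recovered from the deposited fold and −log10 p: fold is (0.787 × fragments + 1) / (control level + 1), and p the Poisson tail. All 8849 peaks were solved to within 0.00015 of the deposited −log10 p, with a genome background of 1.18. For 36 members a second number lay within 0.005, and the closer one was taken. Joining and recovery were tested on simulated data. Without molecular identifiers, reads need not be independent molecules, so Poisson and Wilson intervals cover counting error only.

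The groups named are those of 8 or more peaks, the 10 with the highest-scoring and the 5 with the lowest-scoring strongest member, the 5 longest, the 5 most compact of 4 or more peaks, and those on X, 31 in all, plus the ones marked in the text; 1 of them is not reported here. The plan allowed gene names only from an mm9 annotation; the landmarks named depart from it. The comparisons with genes and motifs need a genome of build mm9 and were not run. Joining distance, peak merging, score, group size and ranking were varied. Calculations used scipy 1.17.1 and numpy 2.4.6 in Python 3.11.15, tables pandas 2.3.3, and plots matplotlib 3.10.9.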

Additional observations from a re-analysis of the deposited data

How the results depend on the processing

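Of 27 alternatives, 5 of them added after the data were seen, 16 stayed within a factor of 1.5 (counts) or the 95% interval of the reported value (medians and shares), and 11 did not. The joining distance sets the groups. At 5 kb there were 168 groups with 570 peaks and a median span of 4.52 kb, and at 25 kb 578 groups with 2329 peaks and 23.0 kb. The 4453 peaks with at least the median score gave 92 groups with 309 peaks. With peaks within 1 kb counted as 1, the median span was 13.9 kb. The strongest member lay inside in 37.7% of groups of exactly 3 peaks. A fold of 10 or more was reached in 54.5% of groups of 4 or more. These shifts follow from the alternatives' construction. The median fold of members was 5.22 to 5.36 in the alternatives run, beside 5.31 as reported. Median fragments were 33 to 34, beside 33.5. Each of these alternatives took a part of the same members, so it is no independent check. Motif and gene alternatives were not run. The list merges its replicates, so none could be left out. No paired analysis was possible because the merged list holds no replicate values. Depth limits the weak end: a site below the q threshold is not in the list, and groups there may lack members.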

Other observations

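The caller's peak numbers run to 8922 and 73 of them are not in the list analysed here. None of these numbers fell between the members of a dense group, and 10 groups stood next to one, so a group there may have further members. Without those 10 groups, 364 remained. The 8 peaks outside chromosomes 1 to 19 and X formed no group at this joining distance. Without any peak whose control level reached 10, 320 groups were found.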
